A study of Mus musculus with 2 samples.

Results

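CD8 T cells were looked for among cells that had been sorted as CD4+ CD25+. The members were droplet barcodes with 2 or more summed unique molecular identifiers (UMIs) of Cd8a and Cd8b1, at least 1 summed UMI of the CD3 genes Cd3e, Cd3d and Cd3g, and fewer than 3 summed UMIs of the B cell genes Cd79a, Cd79b and Ms4a1. They numbered 118 of the 11363 barcodes kept, those with no fewer than 500 genes detected and mitochondrial UMIs of no more than 10%. Of these members, 49 came from the lymph node and 69 from the spleen.

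The study made 2 single-cell RNA libraries from female mice of the genotype Mycfl/flFoxp3Cre/WT, 1 from lymph node and 1 from spleen. In these healthy animals regulatory T (Treg) cells with and without Myc live side by side, because the Cre recombinase is driven by the X-linked Foxp3 gene and only a portion of the Treg cells carries the active Cre allele. Sorted YFP+ and YFP- cells, YFP marking cells that express the Cre allele, entered the same droplet lane for each tissue. The age of the mice, the number of animals pooled and the YFP state of each barcode were not given in the sources used here.

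As background, CD8 T cells recognise peptides on MHC class I through a co-receptor built from an alpha chain (Cd8a) and a beta chain (Cd8b1). Their naive form circulates through lymph node and spleen, and their memory form holds transcripts of cytotoxic granules, of the chemokine Ccl5 and of NK-type receptors. CD4 T cells use the Cd4 co-receptor and MHC class II, and the Treg lineage among them is defined by the transcription factor Foxp3 and by high surface CD25, the product of Il2ra. A CD8 T cell is therefore not a target of this sort.

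Members were compared with CD4 comparators, which were kept barcodes with a Cd4 UMI and no UMI of Cd8a or Cd8b1 (1144 in the lymph node and 1423 in the spleen). B barcodes, with 3 or more UMIs of the B cell genes and none of the CD3 genes, gave the background level of T cell transcripts (43 and 46). Counts were summed over the barcodes of a group and scaled to the group's total as CPM, the number of UMIs of a gene per 1000000 UMIs of all genes. With 1 library per tissue and members chosen on transcripts of the same cells, no test was made. Every interval below is a 95% counting interval (exact Poisson for a CPM, exact conditional for a ratio, Clopper-Pearson for a share) and covers counting error only.

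The promoters of 3 of the marker genes are shown for the transcripts that set the members apart beyond the selection itself. Each runs 5′ to 3′ on the gene's strand from 250 bases before to 50 bases after the RefSeq start (build GRCm38.p6), with capitals marking any letters that match the Runx core TGTGGT or the T-box half-site AGGTGT on either strand. Runx3 and the T-box factors Eomes and Tbx21 are known regulators of CD8 T cells.
Nkg7, chr7:43436888-43437187, plus strand: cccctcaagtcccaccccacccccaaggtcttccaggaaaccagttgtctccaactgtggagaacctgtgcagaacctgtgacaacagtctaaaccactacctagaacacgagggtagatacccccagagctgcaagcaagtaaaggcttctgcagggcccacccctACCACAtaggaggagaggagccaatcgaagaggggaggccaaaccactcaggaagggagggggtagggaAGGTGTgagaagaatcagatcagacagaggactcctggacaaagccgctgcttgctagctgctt
Ly6c2, chr15:75111922-75112221, minus strand: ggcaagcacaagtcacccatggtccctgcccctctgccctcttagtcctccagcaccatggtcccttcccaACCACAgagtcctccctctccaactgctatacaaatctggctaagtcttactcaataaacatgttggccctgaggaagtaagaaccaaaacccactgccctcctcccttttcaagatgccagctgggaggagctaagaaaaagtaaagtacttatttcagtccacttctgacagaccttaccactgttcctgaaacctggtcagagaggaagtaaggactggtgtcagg
Dapl1, chr2:59484403-59484702, plus strand: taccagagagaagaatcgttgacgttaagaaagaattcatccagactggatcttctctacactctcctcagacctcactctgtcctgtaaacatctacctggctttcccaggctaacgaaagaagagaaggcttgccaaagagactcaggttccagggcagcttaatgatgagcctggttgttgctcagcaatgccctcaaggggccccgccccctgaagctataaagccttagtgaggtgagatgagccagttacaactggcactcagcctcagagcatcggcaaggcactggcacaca
The Nkg7 window held 1 match to each motif, the Ly6c2 window 1 match to the Runx core, and the Dapl1 window neither. The Runx core was present in 16.8% and the T-box half-site in 13.7% of 32817 promoter windows of the same length, so a match is common and describes the letters only. The 2 motifs can share letters where AGGTGT runs into TGTGGT, which did not occur in the Nkg7 window.

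The members made up 1.02% of the 4820 kept lymph node barcodes (interval 0.753 to 1.34) and 1.05% of the 6543 kept spleen barcodes (0.821 to 1.33). The shares of the 2 tissues differed by less than counting error. Only 2 barcodes in each library had 2 or more Cd8a and Cd8b1 UMIs but failed another part of the rule, in each case by carrying 3 or more B cell UMIs. The members were deeper than the barcodes they were compared with: the median was 3554 UMIs in lymph node members and 3121 in spleen members, against 2608.5 and 2481 in comparators and 2229 and 1995 in B barcodes. A fixed minimum of 2 UMIs is passed more easily by a deep barcode. When every barcode was first thinned to 1200 UMIs, the rule found 27 lymph node and 31 spleen barcodes. The libraries shared 53 barcode sequences, and no member was among them.

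The 2 chains that chose the members were unevenly detected. Both Cd8a and Cd8b1 were seen in 30 lymph node and 38 spleen members, Cd8b1 without Cd8a in 16 and 29, and Cd8a without Cd8b1 in 3 and 2. The highest sum was 16 UMIs in a lymph node member and 22 in a spleen member, with a median of 4 in both. No UMI of either chain was found in any of the 43 and 46 B barcodes. Cd8a and Cd8b1 lie next to each other on chromosome 6, at chr6:71373427-71379173 and chr6:71322788-71337494 (mm10, plus strand).

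**Figure D1:**
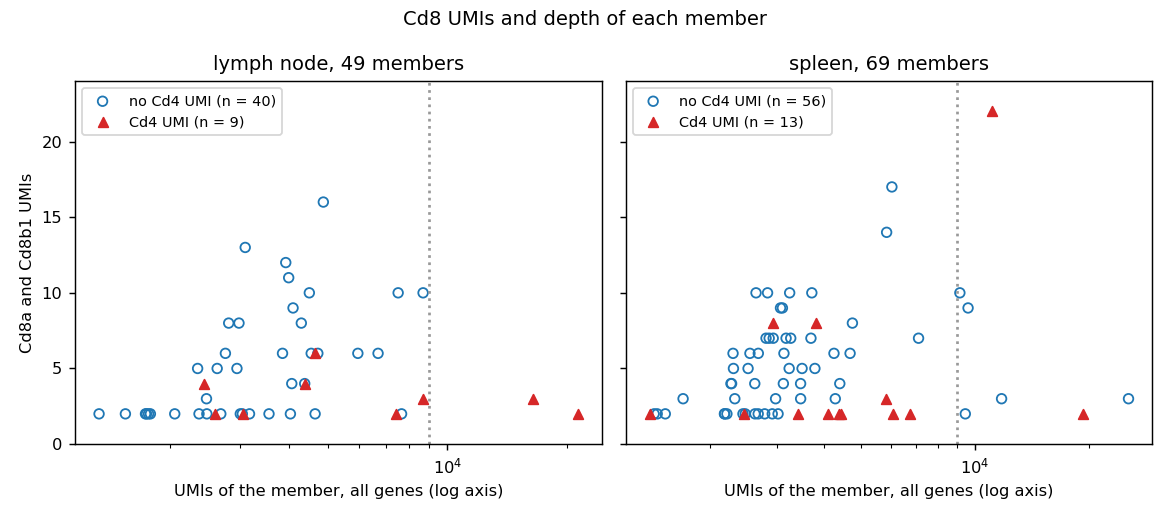
Summed Cd8a and Cd8b1 UMIs of each member (y axis) against its total UMIs (x axis, log scale) in lymph node and spleen. Triangles mark the 9 lymph node and 13 spleen members with a Cd4 UMI, and the dotted line stands at 9000 UMIs. Most members lie at 2 to 5 Cd8 UMIs or spread up to 16 and 22, and the 2 deepest barcodes of each library hold 2 or 3 Cd8 UMIs.

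Just inside the threshold, with exactly 2 UMIs, were 21 lymph node and 23 spleen members. Just outside it, with 1 UMI, were 228 and 341 kept barcodes. The single UMI came from Cd8a in 8.77% of the lymph node barcodes outside and in 2.64% of those in spleen, the rest being Cd8b1. Among members with 2 UMIs, Cd8a gave 23.8% and 6.52% of the Cd8 UMIs, and among members with 6 or more it gave 39.5% and 31.4%. The members with 6 or more UMIs numbered 18 in lymph node and 27 in spleen, and those with 3 to 5 numbered 10 and 19. A barcode with 1 Cd8 UMI thus held almost only the beta chain, and the 2-UMI spleen members resembled it in that share.

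Cd4 was not part of the member rule. A Cd4 UMI was found in 9 of 49 lymph node members (18.4%) and 13 of 69 spleen members (18.8%), against 25.3% and 23.5% of all kept barcodes. After thinning to 1200 UMIs these were 2 (4.08%) and 4 (5.80%). The kept barcodes as a whole were shallower than the members, with medians of 2031 and 1935 UMIs. The unthinned shares were thus not matched for depth, and no thinned share of the kept barcodes is given here. The B barcodes held a Cd4 UMI in 0 of 43 and 1 of 46 barcodes. The Cd4-positive members were placed unevenly by Cd8 sum. In lymph node, 4 of 21 members with 2 Cd8 UMIs, 4 of 10 with 3 to 5 and 1 of 18 with 6 or more had a Cd4 UMI. In spleen the counts were 9 of 23, 1 of 19 and 3 of 27. The barcodes just outside held Cd4 in 28.5% and 29.3%. No doublet caller was run, and whether members with both co-receptors were 2 cells in 1 droplet was not tested.

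Other genes of the CD4 lineage were lower in members. All 6 list genes that reached a mean of 50 CPM over the 4 groups were lower in both libraries, with a median log2 ratio to comparators of -0.96 in lymph node and -0.82 in spleen, and 1 of the 6 is Cd4, which chose the comparators. Over all 2445 genes compared, the median was -0.15 and -0.036. For Maf in lymph node, and for Tox and Gata3 in spleen, the ratio interval included equality. Icos, also among the 6, had the spleen log2 ratio nearest to equality, at -0.27, and its interval is not given here. Izumo1r is on the Treg list as well. Izumo1r, the folate receptor of Treg and follicular helper cells, was at 574 CPM in lymph node members and 1057 in comparators, which is 1.84-fold lower (1.54 to 2.22). In spleen it was at 337 against 766, 2.28-fold lower (1.87 to 2.80). Zbtb7b, Cd40lg and Runx3 were below the mean of 50 CPM. Zbtb7b, which encodes the CD4 lineage factor ThPOK, was at 22.97 CPM in lymph node members against 45.9 in comparators, and in spleen at 23.3 against 39.8, and both ratio intervals included equality. Cd40lg, the CD4 helper ligand, gave 1 UMI in lymph node members and 3 in spleen members. Runx3, the CD8 lineage factor that acts opposite ThPOK, was at 68.9 CPM against 35.3 in lymph node (1.95-fold, 1.07 to 3.33) and at 53.3 against 31.7 in spleen (1.68-fold, 0.936 to 2.82). B barcodes held Runx3 at 37.9 and 73.3 CPM, no lower than the comparators, so they do not serve as a background for this gene.

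Beyond the genes of the rule, the members differed from the comparators in few genes by a large factor. Of the 2445 genes, 11 were at least 2-fold higher in members in both libraries (0.45% of the genes compared), of which Cd8a and Cd8b1 are the rule's own and 9 are not. At least 2-fold lower in both were 7 genes (0.286%), Cd4 and 6 others. For each of these 9 and 6 genes both counting intervals excluded equality. Since the members were selected on the same cells, these counts are a description of them. The minimum level for comparison was a mean over members and comparators, so a gene could pass it through the higher side alone. Of the lower genes, Tbc1d4, Asap1, Ccs and Igkc were below it in members of both libraries, and Tnfrsf9 in spleen members. Of the higher genes, Rgcc was below it in lymph node comparators and Ccl5 in spleen comparators. Ly6c2 and Dapl1 are taken up below. At a minimum of 100 CPM, 9 of the 11 and 3 of the 7 remained. In all, 454 genes (18.6%) were higher and 962 (39.3%) lower in both libraries, and the count of each gene list below is to be read against these shares, and 1029 went in opposite directions. That split depends on the scaling: with median-of-ratios size factors, which moved the lymph node median over all genes from -0.15 to -0.010, 679 were higher and 667 lower, and the same 11 and 7 genes were past 2-fold. It also depends on the members: with those over 9000 UMIs left out, 458 of 2397 genes were higher and 1123 lower. List counts given below for that setting are to be read against these.

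The 4 CD8 marker genes outside the rule were all among the 9. This list was chosen with earlier results of these data known, so that outcome is not independent evidence for the label. Ly6c2 and Dapl1 reached the minimum mean level only through the members, since their comparator levels were below that minimum in both libraries. Ly6c2, which encodes a Ly6C surface antigen of memory CD8 T cells, was at 78.1 CPM in lymph node members and 1.73 in comparators, a ratio of 45.3 (17.8 to 129). In spleen it was at 179.9 against 1.75, a ratio of 103 (48.6 to 250). These levels rest on few cells: 17 UMIs in 7 lymph node members, with 6 in a single member, and 54 UMIs in 10 spleen members, with 14 in a single member. B barcodes held no Ly6c2 UMI. Ly6c2 lies at chr15:75108158-75111970 (minus strand) near its close copy Ly6c1, which shares 25.1% of the 25-base words and 6.10% of the 98-base words of the Ly6c2 transcripts, so the assignment of reads between these copies is uncertain. Ly6c1 itself was not higher in members, at 73.5 CPM against 82.6 in the lymph node, and at 26.7 against 102 in the spleen, which is 3.83-fold lower there (1.93 to 8.93).

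Dapl1, a small protein gene expressed in naive CD8 T cells, was at 257 CPM in lymph node members against 36.2 in comparators, a ratio of 7.10 (5.12 to 9.72). In spleen members it was at 227 against 38.9, a ratio of 5.82 (4.33 to 7.74). It was detected in 16 lymph node and 19 spleen members, and in no B barcode. At 1200 UMIs per barcode, 24.5% of lymph node members and 23.2% of spleen members had a Dapl1 UMI, against 2.89% and 3.31% of comparators. Without thinning the lymph node shares were 32.7% and 4.46%. The gene is at chr2:59484653-59505020 (plus strand).

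Nkg7, a granule membrane protein of cytotoxic cells, was the most widely detected of the 4, in 31 lymph node and 40 spleen members. Its level was 335 CPM against 130 in lymph node (2.59-fold, 1.996 to 3.31) and 423 against 131 in spleen (3.24-fold, 2.65 to 3.92). No single member gave more than 9 of its UMIs. After thinning, 30.6% and 36.2% of members had an Nkg7 UMI, against 6.78% and 8.24% of comparators and 2.33% and 0% of B barcodes. Nkg7 is at chr7:43437073-43438249 (plus strand).

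Ccl5, a chemokine that memory CD8 T cells store as mRNA, was concentrated in few members. It was at 234 CPM against 87.8 in lymph node (2.67-fold, 1.95 to 3.59) and 199.9 against 38.3 in spleen (5.22-fold, 3.83 to 7.04). Only 10 lymph node and 8 spleen members held it, and 1 member gave 18 of the 51 UMIs in lymph node and 1 gave 23 of the 60 in spleen. After thinning, the lymph node share of members with Ccl5 was 12.2% (4.63 to 24.8), and that of B barcodes was 6.98%, so the share in members was not above the B barcodes beyond counting error. In spleen it was 8.70% of members, 2.87% of comparators and 0% of B barcodes. Ccl5 lies at chr11:83525778-83530518 (minus strand).

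**Figure D2:**
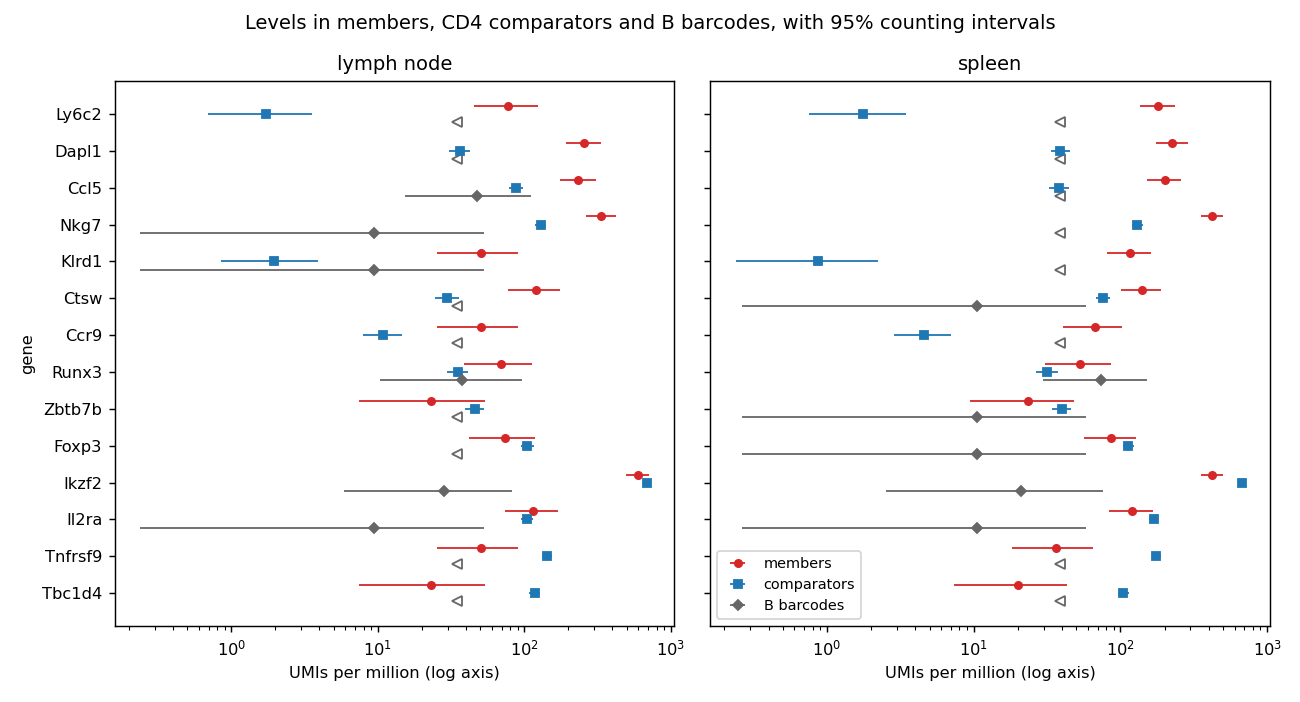
Level of 14 genes in CPM (log x axis) in members, comparators and B barcodes of each library, with exact Poisson 95% intervals for counting error as bars. An open triangle pointing left is the upper bound for a group with 0 UMIs. Dapl1, Nkg7, Ly6c2 and Klrd1 points of members lie to the right of those of comparators and B barcodes in both libraries, and Foxp3 and Ikzf2 in members lie far nearer to the comparators than to the B barcodes.

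Klrd1, the CD94 chain that pairs with NKG2 receptors, was chosen after its values were seen, and its mean level was below the 50 CPM needed to be counted among the 2445 genes. It gave 11 UMIs in 9 lymph node members and 35 UMIs in 24 spleen members, against 8 UMIs in the 1144 lymph node comparators and 4 in the 1423 spleen comparators. The levels were 50.5 against 1.97 CPM (25.6-fold, 9.39 to 73.4) and 117 against 0.875 CPM (133-fold, 47.7 to 516). At 1200 UMIs it was found in 10.2% of lymph node and 17.4% of spleen members, in 0.27% and 0.15% of comparators and in 2.33% and 0% of B barcodes. Unthinned, the member shares were 18.4% and 34.8%. Of the 228 and 341 barcodes just outside the Cd8 threshold, 0 and 1 held a Klrd1 UMI. Ccr9, the gut-homing chemokine receptor, also chosen after its values were seen, was at 50.5 against 10.9 CPM (4.66-fold, 2.17 to 9.17) and 66.6 against 4.59 CPM (14.5-fold, 7.46 to 28.1), with 8 and 13 members holding it.

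Of the cytotoxic effector list, 6 of 20 genes reached 50 CPM. Of these, 3 were higher and 2 lower in both libraries, with median log2 ratios of 0.67 and 0.82. The 3 higher genes were Ctsw and the markers Nkg7 and Ccl5 already given above. Ctsw, a lysosomal protease gene of cytotoxic cells, was at 119 CPM against 29.8 in lymph node (4.005-fold, 2.52 to 6.16) and at 140 against 76.1 in spleen (1.84-fold, 1.30 to 2.54). Srgn, the granule proteoglycan serglycin, was lower in members, at 496 CPM against 660 in the lymph node and 430 against 545 in the spleen. The killing molecules themselves were sparse. Prf1, which encodes perforin, gave 6 UMIs in 6 lymph node members and 6 UMIs in 5 spleen members. Gzmb gave 3 and 9 UMIs, Gzmm 4 and 0, and Gzma 1 and 0. The T-box factors were as sparse: Eomes gave 2 UMIs in the lymph node and 1 in the spleen, and Tbx21 gave 2 and 0. These genes other than Ctsw, Srgn and Eomes were looked up after the values were seen.

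The list of CD8 lineage regulators added little, since 2 of its 3 genes compared were Cd8a and Cd8b1 and the third was Ctsw. Of the memory CD8 list, 12 of 22 genes were compared, and 3 were higher and 8 lower in both libraries, with medians of -0.30 and -0.23. Without the members over 9000 UMIs, 5 of 11 were lower. The higher genes included Ly6c2. Il2rb, the beta chain shared by the IL-2 and IL-15 receptors, was at 119 against 282 CPM in lymph node (2.36-fold lower, 1.60 to 3.63) and at 180 against 278 in spleen (1.54-fold lower, 1.18 to 2.07). Of the NK-type receptor list, only 2 of 22 genes reached the minimum. Klrg1 was at 87.3 against 56.0 CPM and 53.3 against 35.9, with 15 of its 19 lymph node UMIs and 12 of its 16 spleen UMIs in a single member each, and Hcst, an adaptor of activating receptors, was at 377 against 425 and 339.8 against 340.0. Both Klrg1 intervals and both Hcst intervals included equality.

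Several of the most separated genes have no CD8-specific name. Dnajc15, a mitochondrial co-chaperone, was at 294 against 119 CPM in lymph node (2.48-fold, 1.88 to 3.22) and 263 against 87.3 in spleen (3.02-fold, 2.34 to 3.85). It was spread over 37 lymph node and 45 spleen members, with at most 4 and 6 UMIs in a single member, and after thinning it was found in 32.7% and 31.9% of members, 11.8% and 9.04% of comparators and 2.33% and 4.55% of B barcodes. Epsti1, an interferon-inducible gene that lies beside Dnajc15 on chromosome 14, was at 345 against 158 CPM (2.18-fold, 1.69 to 2.77) and 287 against 122 (2.36-fold, 1.86 to 2.96). Dnajc15 spans chr14:77820681-77875125 on the minus strand and Epsti1 spans chr14:77904239-78002657 on the plus strand. Arl4c, a small GTPase, was at 184 against 82.6 CPM (2.23-fold) and 210 against 103 (2.04-fold). Rgcc rests on 12 and 40 UMIs, at 55.1 against 26.9 and 133 against 55.5 CPM. Klk8 was higher by less than 2-fold, at 211 against 124 and 210 against 138 CPM.

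**Figure D3:**
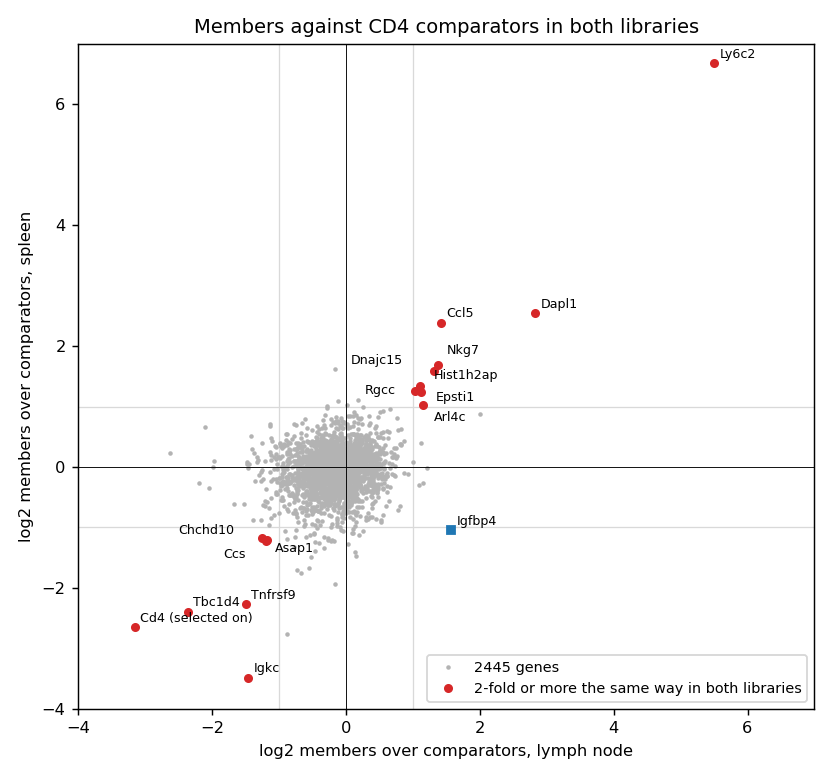
Log2 ratio of members to comparators in lymph node (x axis) and spleen (y axis) for the 2445 genes with a mean of at least 50 CPM, 1 point per gene. Red points are at least 2-fold away from equality in the same direction in both libraries, the blue square is Igfbp4, and Cd8a and Cd8b1 lie outside the axes. Most genes sit close to 0 in both directions, and Ly6c2 and Dapl1 stand apart at the upper right. Ccl5 lies at 1.42 and 2.39, and Nkg7 (1.37 and 1.69) lies beside Dnajc15 (1.31 and 1.59).

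The genes lower in members by 2-fold or more included a costimulatory receptor and a metabolic regulator. Tbc1d4, a regulator of glucose transporter traffic, was at 22.97 CPM against 118 in lymph node (5.14-fold lower, 2.19 to 15.9) and 19.99 against 105 in spleen (5.25-fold lower, 2.39 to 14.4). Tnfrsf9, the costimulatory receptor 4-1BB, was at 50.5 against 143 (2.82-fold lower, 1.57 to 5.69) and 36.7 against 176 (4.81-fold lower, 2.67 to 9.67). Chchd10, a mitochondrial protein gene, was at 68.9 against 165 and 107 against 240 CPM. Asap1 (32.2 against 74.0 and 33.3 against 77.8 CPM) and Ccs (41.3 against 93.9 and 40.0 against 91.8 CPM) each rested on at most 12 UMIs in the members of a library. Igkc, the immunoglobulin kappa constant gene, gave 9 and 2 UMIs in members. Its B barcode level was 13363 CPM in lymph node, and B cell transcripts were used in the member rule and not in the comparator rule.

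The Treg list was lower in members as a whole, yet not absent from them. Of its 24 genes 14 were compared, and 10 were lower and 2 higher in both libraries, with a median of -0.41 in lymph node and -0.63 in spleen. Summed over the list, the level was 2825 CPM in lymph node members (interval 2606 to 3058), 3896 in comparators and 1013 in B barcodes. In spleen the 3 values were 2609 (2429 to 2798), 4267 and 1079. Members thus lay between the comparators and the B barcodes in both libraries.

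Foxp3 itself, which defines the Treg lineage, gave 16 UMIs in 12 lymph node members and 26 in 16 spleen members. Its level was 73.5 CPM against 105 in comparators of the lymph node (ratio 0.698, 0.396 to 1.15) and 86.6 against 113 in the spleen (0.763, 0.494 to 1.13), so a difference was not detectable at this depth. B barcodes held Foxp3 at 0 and 10.5 CPM. After thinning, 8.16% of lymph node members and 8.70% of spleen members had a Foxp3 UMI, against 12.3% and 10.4% of comparators and 0% and 2.27% of B barcodes. Ikzf2, encoding Helios, was at 597 against 686 CPM in lymph node (0.871, 0.725 to 1.04) and at 423 against 675 in spleen (0.627, 0.521 to 0.749), with B barcodes at 28.4 and 20.9. After thinning it was present in 36.7% and 26.1% of members and in 43.4% and 41.6% of comparators. Il2ra was at 115 against 105 CPM in lymph node (1.09, 0.70 to 1.64) and 120 against 169 in spleen (0.708, 0.492 to 0.988), and B barcodes were at 9.47 and 10.5.

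Counting any of the Treg genes Foxp3, Il2ra, Ikzf2, Ctla4 and Tnfrsf18 at 1200 UMIs, 51.0% of lymph node members and 50.7% of spleen members had at least 1 UMI. The shares were 72.3% and 73.5% in comparators and 9.30% and 15.9% in B barcodes. Unthinned, they were 67.3% and 66.7% in members, 88.3% and 87.8% in comparators and 23.3% and 19.6% in B barcodes. The member shares were far above the B barcodes and below the comparators in both tissues. The share just outside the Cd8 threshold was 77.2% and 78.7% at 1200 UMIs.

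Treg transcripts were lower in the members with the most Cd8 UMIs, although these were not shallower (median UMIs of 2687, 3503.5 and 4389 in the lymph node bands and 2678, 3233 and 3243 in spleen). The list sum in lymph node was 3168 CPM at 2 Cd8 UMIs, 3921 at 3 to 5 and 1824 (1546 to 2137) at 6 or more. In spleen it was 3798, 2716 and 1595 (1375 to 1841). Even the highest band stayed above the B barcodes at 1013 (830 to 1225) and 1079 (880 to 1308). In that band Foxp3 gave 4 UMIs in 3 of 18 lymph node members and 7 UMIs in 4 of 27 spleen members, at 47.7 (13.0 to 122) and 59.7 (24.01 to 123) CPM. Ikzf2 stood at 334 and 341 CPM in it, detected in 10 and 7 members. Il2ra stood at 131 and 85.3 CPM, detected in 5 and 5 members. The members with a Cd4 UMI held the Treg list at 3466 and 3924 CPM, and those without at 2516 and 2163. Whether droplets with RNA of a second cell account for these Treg transcripts was not tested.

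Nkg7 was higher with more Cd8 UMIs in both libraries, and Dapl1 and Klrd1 were so in spleen. From the 2-UMI band to the 6-or-more band, Nkg7 stood at 205, 236 and 524 CPM in lymph node and at 87.3, 493 and 631 in spleen. Dapl1 stood at 337, 118 and 262 CPM in lymph node and at 32.7, 120 and 461 in spleen. Klrd1 stood at 24.1, 98.5 and 47.7 CPM in lymph node and at 10.9, 131 and 188 in spleen. Nkg7 was detected in 23 of the 27 spleen members with 6 or more Cd8 UMIs and in 3 of the 23 with 2. In spleen the 2-UMI members were thus not above the comparators in Dapl1 or Nkg7. They held 1 Klrd1 UMI, which lay in the member of 3022 UMIs described below. In lymph node, by contrast, the 2-UMI members held Dapl1 at a level like that of the whole group. None of the 4 marker genes outside the rule, Dapl1, Nkg7, Ccl5 and Ly6c2, had a UMI in 10 of 21 lymph node members with 2 Cd8 UMIs, 2 of 10 with 3 to 5 and 1 of 18 with 6 or more. In spleen these were 16 of 23, 4 of 19 and 2 of 27. In the lymph node band of 3 to 5, with Cd4 in 4 of 10 members, the Treg list was level with the comparators (3921 against 3896 CPM). That level leaned on 1 deep member of 16429 UMIs with 3 Cd8 UMIs. It gave 99 Treg list UMIs, 16.1% of those in all lymph node members. The band was not recomputed without it, so a level like that of the comparators is not shown for the band's other members. The label of CD8 T cells was thus carried best by the members with 6 or more Cd8 UMIs, and members at 2 UMIs in both tissues, and at 3 to 5 in the lymph node, were mixed in these transcripts.

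**Figure D4:**
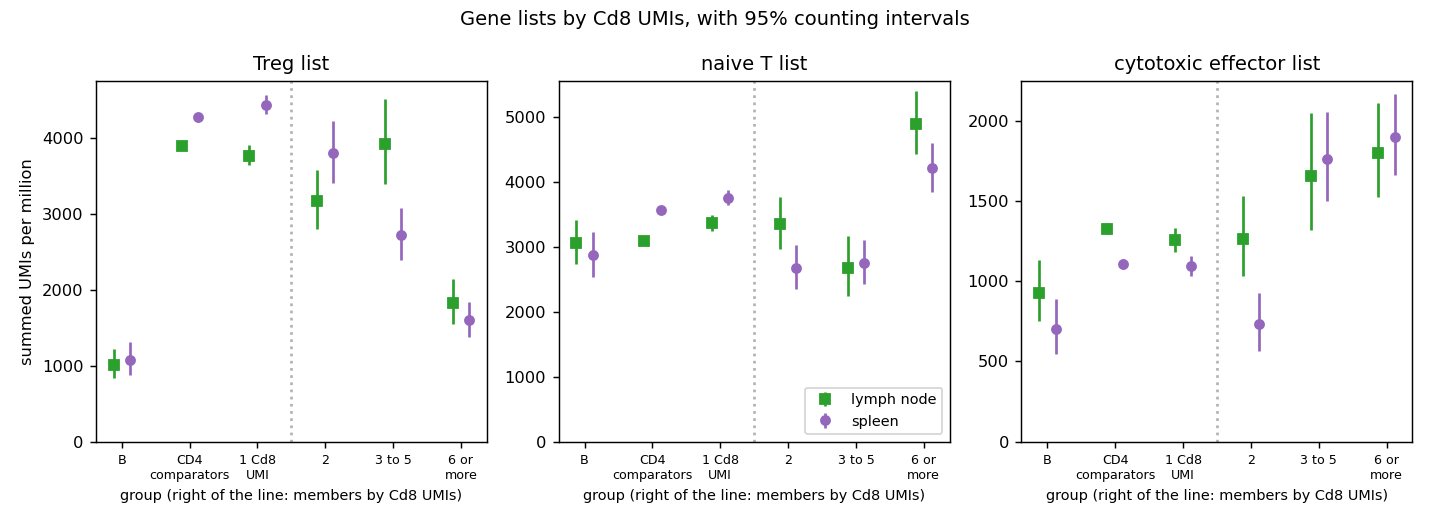
Summed level in CPM of the Treg, naive T and cytotoxic effector lists in B barcodes, comparators, barcodes with 1 Cd8 UMI and members with 2, 3 to 5 and 6 or more Cd8 UMIs, with 95% Poisson intervals, per library. Among members the Treg list is lowest in the 6-or-more band, at 1824 and 1595 CPM, where the naive T list is at 4899 and 4214 and the cytotoxic list at 1800 and 1902.

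The naive T list differed between the libraries. Of its 20 genes 18 were compared, and 5 were higher, 4 lower and 9 opposite, with a median of 0.28 in lymph node and -0.16 in spleen. Without the members over 9000 UMIs, 9 were higher and 2 lower. Summed, it stood at 3790 CPM in lymph node members against 3097 in comparators, and at 3298 against 3573 in spleen. Lef1, a factor of naive and stem-like T cells chosen after its values were seen, was at 289 against 153 CPM in lymph node (1.90-fold, 1.44 to 2.46) and at 183 against 198 in spleen (0.928, 0.694 to 1.22). Il7r, the IL-7 receptor alpha chain, was at 202 against 164 and 210 against 161 CPM, with both intervals including equality. In the 6-or-more band the naive list sum was 4899 CPM in lymph node and 4214 in spleen, above the comparators in both. These sums include the marker Dapl1, at 262 and 461 CPM in that band against 36.2 and 38.9 in comparators. The sum without Dapl1 was not computed, so an excess of the other naive genes is not shown.

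Dapl1, of naive CD8 T cells, and genes of memory CD8 T cells were at times detected in the same member. With any of Ccl5, Nkg7, Eomes, Ly6c2, Il2rb and Cxcr3 counted as a memory gene, 2 lymph node members had Dapl1 alone, 25 a memory gene alone, 14 both and 8 neither. In spleen the counts were 3, 39, 16 and 11. After thinning to 1200 UMIs they were 4, 19, 8 and 18 in lymph node and 5, 24, 11 and 29 in spleen. A memory gene was then found in 55.1% and 50.7% of members and also in 38.2% and 37.1% of comparators (79.6%, 79.7%, 59.4% and 56.1% without thinning), so it was not particular to the members, and Il2rb was lower in them. Both together were found in 16.3% and 15.9% of members and 0.633% and 0.662% of comparators after thinning. Dapl1 by itself was far more often detected in members, as given above. The joint share expected from the single detections was not computed, so joint expression particular to members is not shown. Dapl1 and Ccl5 were found together in 2 of the 16 lymph node members with Dapl1, and in 4 of the 19 in spleen. Ly6c2 and Ccl5 were found together in 2 of 7 and 4 of 10 members with Ly6c2.

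Of the T cell receptor signalling list, 15 of 19 genes compared were lower in both libraries and 3 higher, with medians of -0.24 and -0.14 against -0.15 and -0.036 over all genes. The list includes Cd3e, Cd3d and Cd3g, which were used in the member rule and not in the comparator rule. Its counts and medians were not recomputed without them. Without the members over 9000 UMIs, 9 were lower and 4 higher, beside 1123 of 2397 genes lower and 458 higher in all. The share lower was then near that of all genes. Cd28, the costimulatory receptor, was at 239 against 397 CPM in lymph node (1.66-fold lower, 1.26 to 2.24) and 213 against 380 in spleen (1.78-fold lower, 1.39 to 2.32). Cd5, a dampener of receptor signals, was at 119 against 200 and 96.6 against 200 CPM. Costimulatory and inhibitory receptors had 8 of 11 genes lower and none higher, with medians of -0.73 and -0.52. That list shares Ctla4, Tigit, Tnfrsf4, Tnfrsf9 and Tnfrsf18 with the Treg list. Of the immediate early list, 10 of 13 were lower and none higher. Without the members over 9000 UMIs, 4 were lower and 2 higher and the spleen median was 0.053, and 6 were lower with comparators weighted to the depth of the members. Dusp1, a phosphatase induced by stimulation, was at 124 against 300 CPM and 143 against 264.

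Ribosomal protein genes formed the most one-sided list, with 72 of 80 genes higher in members in both libraries and 2 lower, at medians of only 0.21 and 0.15. Rplp1, a stalk protein of the large subunit, was at 7351 against 5645 CPM in lymph node (1.30-fold, 1.24 to 1.37) and 6380 against 5073 in spleen (1.26-fold, 1.20 to 1.32). The IL-2 receptor and STAT5 list had 3 of 10 genes higher and 5 lower (medians 0.02 and -0.44), the interferon list 2 of 16 and 7 (-0.16 and -0.27), the homing list 1 of 12 and 6 (-0.20 and -0.18), MHC class I 3 of 14 and 6 (-0.00 and -0.26) and the Gimap GTPases 0 of 7 and 5 (-0.35 and -0.34). The shares lower in the interferon, homing and MHC class I lists were near the 39.3% of all genes and say little about these lists. The interferon list turned once the members over 9000 UMIs were left out, with 8 of 17 genes higher and 4 lower and medians of 0.082 and 0.12. The homing list then had 3 of 13 higher and 3 lower (0.030 and -0.045) and MHC class I 6 of 14 higher and 5 lower (0.10 and 0.012). The lymph node median of the MHC class I list turned to 0.13 with size factors, and that of the homing list turned to 0.05 with ribosomal and mitochondrial genes left out of the total. Ifi27l2a, an interferon-induced gene, was at 1268 against 1750 CPM and 856 against 1666.

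Cell cycle transcripts came from a handful of members. Of the list's 14 genes compared, 9 were higher and 1 lower in both libraries, with medians of 0.16 and 0.42, and its sum was 3243 CPM in lymph node members against 2741 in comparators and 3278 against 2386 in spleen. In lymph node, 2 members with 254 and 244 UMIs gave 70.5% of the list's UMIs. They held 21331 and 16429 UMIs in all, 2 and 3 Cd8 UMIs, and 1 Cd4 UMI each. In spleen, 3 members with 389, 168 and 126 UMIs gave 69.4%. The typical member had few: the median was 3 UMIs in lymph node and 4 in spleen.

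**Figure D5:**
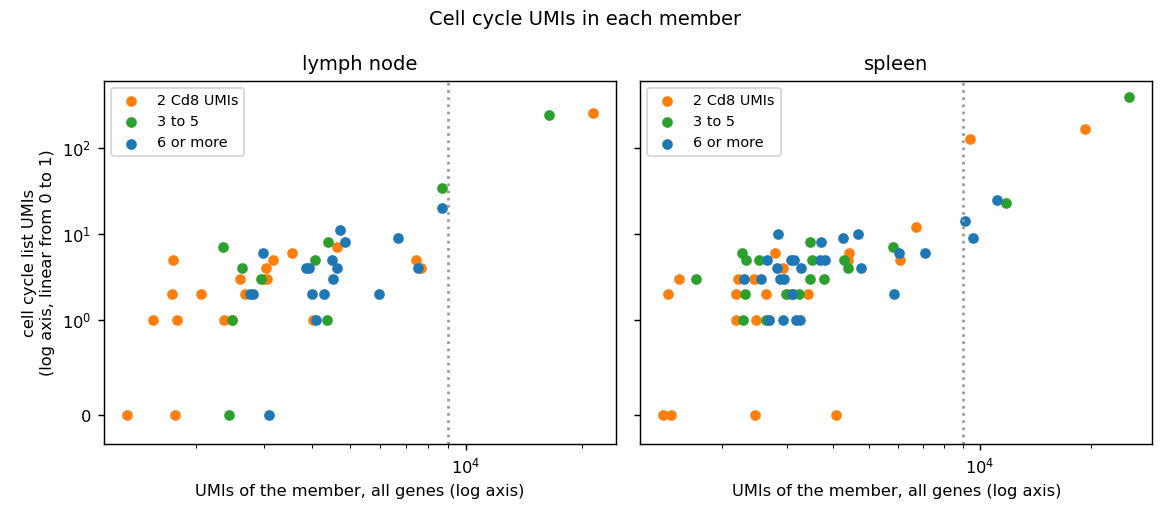
UMIs of the 20 cell cycle genes per member (y axis, linear near 0 and log above) against the member's total UMIs (log x axis) in each library. The 2 lymph node members at 254 and 244 UMIs and the 3 spleen members at 389, 168 and 126 stand above all others.

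Without the 2 lymph node and 7 spleen members over 9000 UMIs, which gave 17.3% and 31.9% of all member UMIs, the direction of the cell cycle list turned. It then had 6 genes compared, none higher and 5 lower in both libraries, with medians of -1.33 and -1.30. Hist1h2ap, a replication-linked histone gene and one of the 9 genes above, was at 905 CPM against 422 in the lymph node and 466 against 185 in the spleen. Its UMIs lay in 4 and 6 members, with 110 of 197 and 107 of 140 in a single member each, and without the deepest members only 3 and 2 UMIs were left. The CD8 markers did not depend on these barcodes: without them, as an alternative added after seeing the data, 10 of the 11 higher genes remained and 14 were at least 2-fold higher in all. Of the 7 lower genes 4 remained, and 19 were at least 2-fold lower.

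One spleen member went against its label. It had 3022 UMIs, with 2 of Cd8b1, 0 of Cd8a and 1 of Cd3g, and it gave 105 of the UMIs of the dendritic and myeloid list, 49.3% of those in all spleen members. All 5 Siglech UMIs, all 17 Tyrobp UMIs, 13 of 14 H2-Aa UMIs, 60 of 114 Cd74 UMIs and 12 of 23 Irf8 UMIs of the spleen members were in it. Siglech marks plasmacytoid dendritic cells, and Cd74 and H2-Aa belong to MHC class II presentation. It also held 14 of the 54 Ly6c2 UMIs. Without it, Ly6c2 in spleen members stood at 134.6 CPM, 76.95 times the comparators, and the same 11 and 7 genes were past 2-fold.

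Defining markers of other cells were otherwise rare. Ncr1, Klrb1c and Klre1, which define NK cells, were at 0 UMIs in all members of both libraries, which allows a share of up to 7.25% of lymph node and 5.21% of spleen members with an Ncr1 UMI. Itgax, Xcr1, Clec9a, Flt3, Csf1r and Lyz2 were also at 0. Fcer1g gave 0 and 2 UMIs. Trdc, the gamma delta receptor constant gene, gave 2 UMIs in 1 lymph node member and 3 in 1 spleen member, and Tcrg-C1 was found in 1 and 3 members. Summed over its list, the gamma delta and innate-like level was 13.8 CPM in lymph node members and 36.6 in spleen members, against 22.7 and 26.0 in comparators. The B cell list, which includes Cd79a, Cd79b and Ms4a1 of the member rule, stood at 974 and 983 CPM in members, 1306 and 1042 in comparators. The red cell list stood at 101 and 0 CPM, against 121 and 0.656. The NK and innate lymphoid list stood at 294 and 400 CPM against 349 and 365, and the dendritic and myeloid list at 257 and 710 against 771 and 668. Of these lists 3, 0, 0, 2 and 2 genes reached 50 CPM (B, gamma delta, red, NK and dendritic).

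Myc, the gene deleted in the Cre-active Treg cells, was barely detected in members. It gave 6 UMIs in lymph node (27.6 CPM against 32.3 in comparators) and 13 in spleen (43.3 against 39.6), and both ratio intervals included equality. The added feature ICRE, whose sequence was not given in the sources used here, gave 3 and 6 UMIs in members, at 13.8 against 20.7 CPM and 19.99 against 30.2. The added features EYFP and CRE gave 0 UMIs in members, comparators and B barcodes of both libraries. The members could therefore not be divided by Myc or YFP state.

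Between the tissues, 1178 genes with a mean of at least 100 CPM in members were compared. At least 2-fold higher in lymph node members were 7 genes (0.594%) and at least 2-fold higher in spleen members were 32 (2.72%). Over the same genes the comparators had 3 and 1, and 1 gene was past 2-fold in the same direction in both. With 1 library per tissue, tissue and library cannot be told apart.

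Gimap7, a lymphocyte GTPase, was at 202 CPM in lymph node members and 76.6 in spleen members (2.64-fold, 1.56 to 4.58), and the comparators stood at 256 and 83.3, a like ratio of 3.07. Its relatives Gimap4 (455 against 220, 2.07-fold) and Gimap5 (225 against 99.9, 2.25-fold) were also higher in lymph node members, with comparator ratios of 1.83 and 1.72. Glrx, a glutaredoxin, was at 221 against 93.3 (2.36-fold, 1.45 to 3.91), with 23 of 48 lymph node UMIs in 1 member, and 4.16-fold (2.16 to 8.66) without the members over 9000 UMIs. H2afv, a histone variant, was at 418 against 193 (2.16-fold, 1.54 to 3.06), which was 1.22-fold (0.769 to 1.96) without the members over 9000 UMIs. Hist1h2ap was at 905 against 466, on 3 and 2 UMIs without those members.

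Of the 32 genes higher in spleen members, 10 stayed past 2-fold without the members over 9000 UMIs, where 17 were past it in all. Cacybp, a ubiquitin ligase partner, was at 59.7 CPM in lymph node and 213 in spleen (3.57-fold, 1.95 to 7.07), and 2.20-fold (1.10 to 4.72) without the members over 9000 UMIs. Hspd1, the mitochondrial chaperonin, was at 101 against 290 (2.87-fold, 1.78 to 4.81), and 1.502-fold (0.798 to 2.91) without them. Srsf2, a splicing factor, was at 156 against 383 (2.45-fold, 1.66 to 3.71), and 1.38-fold (0.855 to 2.26) without them. Vim, the intermediate filament vimentin, was at 312 against 770 (2.46-fold, 1.87 to 3.28), and 1.56-fold (1.10 to 2.23) without them. Lgals1, encoding galectin-1, was at 542 against 1209 (2.23-fold, 1.81 to 2.77), with 109 of 363 spleen UMIs in 1 member, and turned to 561 against 485 without them. Cd74 was at 138 against 380 (2.76-fold, 1.83 to 4.27), and 1.32-fold (0.829 to 2.13) without the spleen member described above and 5.504-fold without the members over 9000 UMIs.

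Among the CD8 markers, Dapl1 (257 and 227 CPM), Nkg7 (335 and 423) and Ccl5 (234 and 199.9) differed between lymph node and spleen members by less than counting error, except that Nkg7 was 1.38-fold higher in spleen (1.01 to 1.88) without the members over 9000 UMIs. Ly6c2 was 2.30-fold higher in spleen members (1.32 to 4.24), and 1.72-fold (0.955 to 3.24) without the 1 member rich in dendritic cell transcripts. Klrd1 was 2.31-fold higher in spleen members (1.15 to 5.04). Ikzf2 was 1.41-fold higher in lymph node members (1.10 to 1.82), at 597 against 423 CPM, and Foxp3 did not differ beyond counting error.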

How the data were processed

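The deposited files hold raw UMI counts per gene and barcode, which the authors made with Cell Ranger 3.0.1 on mm10, per the submitters' processing notes; libraries were 10x 3′ V2, per the labels' protocols. Depth was 13324306 UMIs over 5079 lymph node barcodes and 16868549 over 6840 in spleen; the cell filter left out 259 and 297. Counts were summed per group and scaled to CPM with Python 3.11.15, numpy 2.4.6, scipy 1.17.1 and pandas 2.3.3. Thinning drew 1200 UMIs per barcode once; doublets were kept. The scripts were tested on simulated data. Members and the 24 gene lists were chosen with earlier results of these data known. Named genes were 12 on each side by the interval bound nearest to equality in the weaker library, 6 on each side between tissues, up to 4 per list, and the markers; others were chosen after their values were seen. Alternatives changed the scaling, thinning, weighting, minimum CPM, members and comparators.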

Additional observations from a re-analysis of the deposited data

Results flagged for a closer look

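For 7 genes the members lay on opposite sides of the comparators in the 2 libraries, with both counting intervals excluding equality. The difference between the libraries was not tested, and 16 of the 2445 genes showed this pattern in all. Cacybp had a log2 ratio of -0.88 in lymph node and 0.54 in spleen. Hspd1 had -0.62 and 0.79, Srsf2 -0.72 and 0.34, Vim -0.43 and 0.27, and Lgals1 -0.78 and 0.30. H2afv went the other way, with 0.43 in lymph node and -0.55 in spleen. Without the members over 9000 UMIs, the spleen values were -0.47 for Vim, -1.02 for Lgals1, -0.24 for Hspd1 and -0.39 for Srsf2, and the lymph node value of H2afv was -0.45, so these 5 genes then had 1 direction in both libraries. Cacybp then had -0.72 in lymph node and 0.0033 in spleen, so its spleen members were level with the comparators.

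Igfbp4, a gene of naive T cells chosen after its values were seen, was at 64.3 CPM in lymph node members and 21.7 in comparators, a log2 ratio of 1.57 on 14 UMIs. In spleen it was at 60.0 against 124, a log2 ratio of -1.05 on 18 UMIs. The member levels of the tissues were alike, and the comparator levels were not. Without the members over 9000 UMIs the ratios were 1.84 and -0.49.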

How the results depend on the processing

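The cells, not the reads, limit these values: 49 and 69 members from 1 library per tissue, with few UMIs per gene. No paired analysis was possible because each tissue has 1 library. The member share was 0.581% in lymph node and 0.703% in spleen with 3 or more Cd8 UMIs, 0.622% and 0.581% with both chains, and 0.591% and 0.515% after thinning, which also moved the Cd4 share to 4.08% and 5.80%. Genes at least 2-fold higher numbered 18 without ribosomal and mitochondrial genes in the total, 23 at a minimum of 20 CPM, 17 for members with both chains and 19 with 6 or more Cd8 UMIs. Genes at least 2-fold lower numbered 32 after thinning, 3 at a minimum of 100 CPM, 43 at 20 CPM, 15 for members without Cd4, 23 with 3 or more Cd8 UMIs, 41 with both chains, 55 with 6 or more, 23 without the 5% of barcodes with most UMIs, 19 without members over 9000 UMIs and 13 by the mean of single-cell CPM. Fewer members or UMIs also leave wider counting error, and the cause was not tested further.

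The Treg list median moved to -1.12 (lymph node) and -1.38 (spleen) for members with 6 or more Cd8 UMIs, and -1.50 in spleen with both chains. The naive T median in lymph node turned to -0.19 after thinning, and the T cell receptor median in spleen to 0.0050 without members over 9000 UMIs. Gene by gene, 1011 of 1200 recomputed log2 ratios of 40 named genes stayed within their interval and 28 turned direction. Hist1h2ap turned in lymph node to -0.46 (thinned), -4.37 (without Cd4), -4.12 (both chains), -2.24 (without the top 5%), -4.66 (without members over 9000 UMIs) and -3.56 (6 or more Cd8 UMIs), and in spleen to -3.25, -1.35, -4.24 and -2.85 under the last 4. Where no UMI was left, 3 UMIs stood in for 0. H2afv in lymph node turned to -0.60, -0.80, -0.15, -0.45 and -0.53 under the last 5, and to -0.013 by the mean of single-cell CPM. In spleen, under the last 4, Vim turned to -0.58, -0.11, -0.47 and -0.22, and Lgals1 to -1.06, -0.32, -1.02 and -0.94. Hspd1 turned to 0.032 (without the top 5%) and 0.048 (mean of single-cell CPM) in lymph node and to -0.24 in spleen without members over 9000 UMIs, as did Srsf2 to -0.39.

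Between tissues, genes higher in lymph node numbered 63 after thinning, 2 at a minimum of 200 CPM and 12 for members without Cd4. Those higher in spleen numbered 63 after thinning, 7 at 200 CPM, 17 without members over 9000 UMIs and 20 by the mean of single-cell CPM. The log2 ratio of lymph node to spleen turned for Hist1h2ap to -0.40 (thinned) and -4.89 (without Cd4), and for Lgals1 to 0.21 without members over 9000 UMIs. The alternatives at 6 or more Cd8 UMIs, without members over 9000 UMIs and without the dendritic-type member were chosen after seeing the data.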

Other observations

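Immunoglobulin transcripts in the members did not keep the proportions seen in B barcodes. Ighm gave 160 UMIs in 32 of 49 lymph node members and 141 UMIs in 46 of 69 spleen members, at 735 and 470 CPM. Igkc gave 9 and 2 UMIs in the same members, at 41.3 and 6.66 CPM. In B barcodes Ighm stood at 3372 and 3215 CPM and Igkc at 13363 and 14954. Comparators held Ighm at 572 and 482 CPM and Igkc at 114 and 74.8. Ighm UMIs thus outnumbered Igkc UMIs in members and comparators, and the reverse held in B barcodes of the same libraries. The source of the Ighm counts was not tested.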
